A study of Homo sapiens with 12 samples.

Results

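MHC class II molecules and the proteins that switch on and assist their genes were followed across 5 lymphoid cell lines, 1 of them also treated with PMA. The set holds 10 genes of 26210 rows in the deposited expression table, chosen by symbol: the transactivator CIITA, its DNA-bound partner RFX5, the invariant chain CD74, the classical class II genes HLA-DRA, HLA-DRB1, HLA-DPA1 and HLA-DPB1, and the peptide exchange genes HLA-DMA, HLA-DMB and HLA-DOB. MHC class II molecules are pairs of an alpha and a beta chain that present peptides from the endosomal pathway to CD4+ T cells, and B cells normally express them. The RFX complex, NF-Y and CREB bind the X and Y boxes of these promoters, and CIITA is recruited to them without binding DNA itself. CD74 occupies the new class II groove, HLA-DM exchanges its remnant for peptide, and HLA-DO restrains HLA-DM. CIITA itself is under the control of interferon gamma signalling and of B cell and myeloid factors.

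RNA-Seq was performed on total RNA depleted of ribosomal RNA, with 2 libraries in each of 6 groups. KM-H2, L1236 and L428 are lines of classical Hodgkin lymphoma (cHL), Namalwa is a Burkitt's lymphoma line and Reh a pro-B (B-cell precursor) lymphoblastic leukaemia line, all untreated. The sixth group, Reh_PMA, is Reh exposed to 2 ng/ml of phorbol myristate acetate, an activator of protein kinase C, for a time that the labels of these libraries do not give. The cHL lines were grown in IMDM and both control lines in RPMI, so lymphoma type and medium cannot be told apart, and each line is a single model of its disease. Nothing says that the duplicates came from separate cultures, so p-values measure the spread between libraries, which may be technical. The 2 columns of each group end in 0 and 1, which are not the replicate numbers of the labels, and the libraries are called library 0 and library 1 here.

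Values are FPKM, fragments scaled by transcript length and by the number of mapped fragments, with unknown depth behind them. Per library, FPKM summed to between 659355 and 1124630 over all rows. All 10 genes were among the 14679 rows with an FPKM of at least 1 in at least 2 libraries, which is the tested set. Of 6 markers of cHL lines, TNFRSF8 (CD30), CCL17, TRAF1 and EBI3 were called higher in each cHL line than in each control line. TNFRSF8 lay between 19.1 and 63.7 FPKM in the cHL lines and at no more than 0.51 FPKM elsewhere, but CCL22 was listed at 0 in KM-H2, and CSF1R was highest in Reh_PMA (11.8 and 11.2 FPKM). The 8 B-lineage markers summed to 3.99 to 41.9 FPKM in the cHL lines and to 949 to 1465 FPKM elsewhere. MS4A1 was listed at 0 in every cHL library. DNTT, a marker of B-cell precursors, was above 0 only in the Reh and Reh_PMA libraries. Of 8 markers of other cell types, which summed to 0.19 to 33 FPKM per library, CD3D (13.5 and 22.5 FPKM) was above 0 in KM-H2 alone, CD14 was highest there too (5.79 and 4.56 FPKM, at most 0.14 elsewhere), PECAM1 was highest in L1236 (32.0 and 17.5 FPKM) and MPO in Reh (24.8 and 32.0 FPKM).

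The 7 HLA genes of the set lie within 649.8 kb on chromosome 6 in GRCh37 (hg19), between HLA-DRA at chr6:32407655-32412823 and HLA-DPB1 at chr6:33043767-33057473. CIITA is at chr16:10960079-11036878, RFX5 at chr1:151313116-151319802 and CD74 at chr5:149781200-149792532, all protein coding. HLA-DPA1 and HLA-DPB1 overlap on opposite strands, and the sources used here do not state whether counting used the strand, so reads in their overlap may be split between them. Reads of HLA-DRB1 can also match the near-identical HLA-DRB paralogs, and the alleles of a line can differ from the reference genome. The part of either in the levels was not tested.

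RefSeq promoter windows (GRCh38.p14, 250 bases before to 50 bases after each gene start) were found for 8 of the 10 genes, in 11 windows, with none for CIITA and HLA-DRA. Both strands were searched for a Y box core, ATTGG, which reads as CCAAT where it lies on the opposite strand, and for an X box core spelled AG, any 2 letters, AC, any 2 letters, ATG. These 2 spellings do not overlap each other in the stretches printed here. The X core was in windows of 4 genes (HLA-DRB1, HLA-DMA, HLA-DMB and RFX5) and the Y core in windows of 7 genes, all but HLA-DPA1. Over all 35116 windows of the table, 2.57% held the X core and 34.61% the Y core. An X core followed on the same strand by a Y core starting 15 to 45 bases later occurred in 26 of all windows, 0.074%, and in 2 genes of the set, HLA-DRB1 and HLA-DMA. Stretches of 5 genes are shown as examples with cores of the kind that the regulators described here recognise, and the windows of RFX5 and HLA-DPB1, which also hold cores, are not shown. Each is 120 bases long, ends 11 bases before the RefSeq start, reads 5′ to 3′ on the gene's strand and has the matched cores in capitals.
HLA-DRB1: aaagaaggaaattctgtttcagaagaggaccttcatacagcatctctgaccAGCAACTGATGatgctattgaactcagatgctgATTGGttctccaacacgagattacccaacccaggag
HLA-DMA: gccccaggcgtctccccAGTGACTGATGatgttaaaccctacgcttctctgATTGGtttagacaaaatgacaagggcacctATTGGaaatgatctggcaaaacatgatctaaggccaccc
HLA-DMB: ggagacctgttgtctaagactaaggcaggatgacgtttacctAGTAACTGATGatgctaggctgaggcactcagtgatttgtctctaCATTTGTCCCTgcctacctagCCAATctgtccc
HLA-DOB: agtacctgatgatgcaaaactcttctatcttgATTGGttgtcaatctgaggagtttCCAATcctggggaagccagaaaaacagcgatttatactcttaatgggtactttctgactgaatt
CD74: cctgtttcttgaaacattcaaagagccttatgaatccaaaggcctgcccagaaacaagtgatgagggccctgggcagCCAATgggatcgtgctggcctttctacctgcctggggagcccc
In the HLA-DRB1 stretch the X core started 79 bases and the Y core 46 bases before the gene start. The HLA-DMA stretch held an X core starting 113 bases before the start and Y cores starting 79 and 49 bases before it. HLA-DMB had an X core on the gene's strand, another on the opposite strand and a Y core on the opposite strand nearest the start. HLA-DOB and CD74 showed Y cores only, by exact spelling. Near matches were not searched for, and the opening letters of the HLA-DOB stretch differ from the X core in a single letter. These letters exactly matched GRCh37 on the minus strand at chr6:32557636-32557755 (HLA-DRB1), chr6:32920885-32921004 (HLA-DMA), chr6:32908816-32908935 (HLA-DMB), chr6:32784790-32784909 (HLA-DOB) and chr5:149792484-149792603 (CD74). The HLA-DRB1 stretch matched a second place on chromosome 6, beginning at position 32441413. GENCODE for GRCh37 places the HLA-DMA and HLA-DOB stretches inside longer transcripts of the same genes, and 49 bases of the CD74 stretch inside an exon of 2 of its retained-intron transcripts. The HLA-DMB and HLA-DOB stretches also lie inside protein-coding transcripts of further annotated genes that span these loci, outside their exons, and 15 bases of the HLA-DMA stretch lie in an exon of the one over HLA-DMB. A match of letters is a description and no evidence of binding.

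CIITA was detected in all 12 libraries, with its highest value in KM-H2 library 0. It was measured at 40.1 and 17.0 FPKM in KM-H2 (library 0, then library 1, as throughout), 21.1 and 15.4 in Reh, 15.2 and 10.5 in L428, 11.8 and 10.3 in Namalwa, 8.77 and 9.62 in L1236, and 3.03 and 9.07 in Reh_PMA. The KM-H2 libraries differed by 2.36 times and the Reh_PMA libraries by 2.99 times, the widest disagreements of this gene. In this order of group means, no neighbouring pair that was compared differed by the test, and KM-H2 overlapped Reh, L428 overlapped Namalwa and L1236 overlapped Reh_PMA.

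RFX5, the largest subunit of the RFX complex, lay between 40.9 and 74.3 FPKM in the 5 untreated lines and was lowest after PMA. Its values were 62.1 and 74.3 FPKM in Namalwa, 69.8 and 46.9 in KM-H2, 57.0 and 56.4 in Reh, 40.9 and 64.3 in L1236, 42.7 and 42.9 in L428, and 22.9 and 24.2 in Reh_PMA. Neighbouring untreated groups overlapped throughout this order, and both Reh_PMA libraries lay below all others. No comparison among the untreated lines called RFX5, with L428 against Namalwa nearest (log2 difference -0.65 ± 0.26 (SE), adjusted p = 0.0699 by limma).

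CD74 was among the most abundant members in every line. It was read at 1758 and 958 FPKM in L428, 1112 and 978 in Reh_PMA, 632 and 845 in L1236, 703 and 716 in Reh, 691 and 708 in Namalwa, and 779.6 and 552 in KM-H2. L428 library 0 stood above all others, and its partner library lay below both Reh_PMA values. None of the 12 comparisons called CD74 in either direction as tested. Quantile normalization called it higher in L428 than in Namalwa (1.07, adjusted p = 0.0411) and Reh (1.05, adjusted p = 0.0454), and leaving out L428 library 1 called it higher in L428 than in all 4 other untreated lines (adjusted p = 0.0265 to 0.0467).

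**Figure D1:**
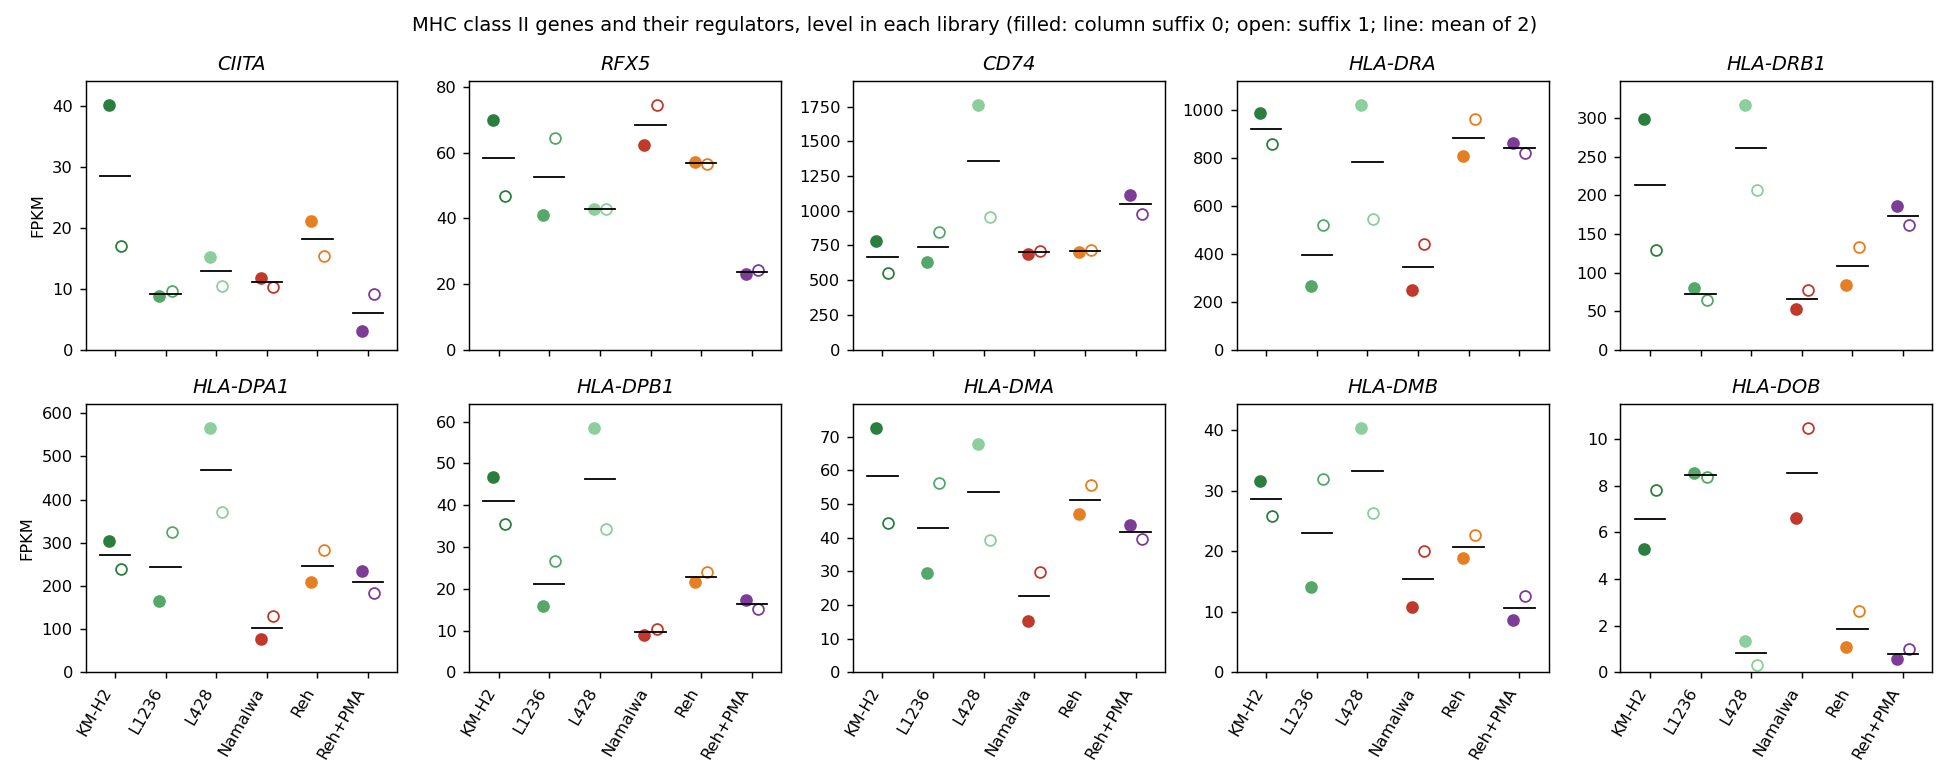
FPKM (y axis, linear, from 0) of each of the 10 genes in each group (x axis), with library 0 filled, library 1 open and the mean of both as a line. CIITA spans 3.03 to 40.1 FPKM, RFX5 is lowest in both Reh_PMA libraries, and HLA-DOB is near 0 in L428 and Reh_PMA.

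The classical class II genes of the set, the DR and DP genes, had their highest mean in L428 or KM-H2 and their lowest in Namalwa. HLA-DQA1 and HLA-DQB1, which are outside the set, had other orders, given below. HLA-DRA, the invariant DR alpha chain, measured 989.6 and 857 FPKM in KM-H2, 809 and 961 in Reh, 863 and 820.1 in Reh_PMA, 1019.8 and 545 in L428, 264 and 522 in L1236, and 247 and 439 in Namalwa. The L1236 and Namalwa libraries all lay below every library of the remaining groups, while the values of those 4 groups overlapped. HLA-DRB1, a DR beta chain, gave 317 and 207 FPKM in L428, 299 and 129 in KM-H2, 186 and 161 in Reh_PMA, 83.8 and 133 in Reh, 80.1 and 64.2 in L1236, and 53.1 and 77.4 in Namalwa. L428 was clear of both control lines, and L1236 overlapped Namalwa.

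For the DP pair the order began and ended the same way. HLA-DPA1, the alpha chain, measured 565 and 372 FPKM in L428, 304 and 238 in KM-H2, 209 and 284 in Reh, 164 and 325 in L1236, 234 and 185 in Reh_PMA, and 76.2 and 130.5 in Namalwa. HLA-DPB1, the beta chain, measured 58.4 and 34.3 FPKM in L428, 46.7 and 35.5 in KM-H2, 21.6 and 24.1 in Reh, 15.9 and 26.5 in L1236, 17.4 and 15.1 in Reh_PMA, and 8.83 and 10.3 in Namalwa. For both genes Namalwa lay below every other library, and for HLA-DPB1 both KM-H2 and L428 lay above all the others. Per length, HLA-DPA1 was 6.51 to 13.5 times as abundant as HLA-DPB1 in each library, and HLA-DRA 2.64 to 9.65 times as abundant as HLA-DRB1.

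HLA-DMA and HLA-DMB, the chains of the peptide exchanger, were present in every library at lower levels than HLA-DRA. HLA-DMA measured 72.5 and 44.3 FPKM in KM-H2, 67.8 and 39.4 in L428, 46.9 and 55.8 in Reh, 29.4 and 56.2 in L1236, 43.9 and 39.6 in Reh_PMA, and 15.2 and 29.9 in Namalwa. HLA-DMB measured 40.3 and 26.3 FPKM in L428, 31.5 and 25.8 in KM-H2, 14.2 and 31.9 in L1236, 18.8 and 22.6 in Reh, 10.8 and 20.0 in Namalwa, and 8.64 and 12.7 in Reh_PMA. Neighbouring groups in these orders overlapped, apart from Reh_PMA and Namalwa for HLA-DMA. Both Namalwa libraries lay below every library of KM-H2, L428, Reh and Reh_PMA for HLA-DMA, and overlapped L1236. For HLA-DMB, both Reh_PMA libraries lay below every library of the other groups except Namalwa. No comparison called HLA-DMB as tested. Without Namalwa library 1 or either L1236 library, HLA-DMB was called higher in L428 than in Namalwa (adjusted p = 0.0309 to 0.0448).

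HLA-DOB, the beta chain of the HLA-DM antagonist, differed in pattern from the other HLA genes of the set. Its levels were 6.63 and 10.5 FPKM in Namalwa, 8.55 and 8.39 in L1236, 5.29 and 7.84 in KM-H2, 1.11 and 2.62 in Reh, 1.33 and 0.31 in L428, and 0.60 and 1.02 in Reh_PMA. Namalwa, L1236 and KM-H2 were all above Reh, L428 and Reh_PMA, with no overlap between these sets of libraries. The ratio of HLA-DMB to HLA-DOB was 1.63 to 5.96 in the first 3 groups and 8.65 to 84.8 in the others.

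The cHL lines were next compared with each control line, using limma on log2(FPKM + 1), where a call needs a Benjamini-Hochberg adjusted p under 0.05 over all tested genes and a difference of at least 2-fold. All differences below are on that log2 scale, with the standard error after ±, and the tests are two-sided. KM-H2 against Namalwa called 5 of 10 members, all higher in KM-H2, where 30.4% of all tested genes were called. These were HLA-DPB1 (1.98 ± 0.31, adjusted p = 0.000753), HLA-DRB1 (1.60 ± 0.42, adjusted p = 0.0141), HLA-DRA (1.48 ± 0.46, adjusted p = 0.0284), HLA-DPA1 (1.42 ± 0.41, adjusted p = 0.0209) and HLA-DMA (1.37 ± 0.42, adjusted p = 0.0293). CIITA was not called (1.18 ± 0.47, adjusted p = 0.0767), but it was without KM-H2 library 1 (difference 1.77) or either Reh_PMA library. CD3D, CD14 and COL1A1, markers of other cell types, were also called higher in KM-H2 than in Namalwa, with all 8 such markers summing to 21.2 and 31.0 FPKM in KM-H2 and to 0.44 and 0.19 FPKM in Namalwa. In KM-H2, CD3E was at no more than 0.20 FPKM and LYZ at no more than 0.59 FPKM, and EPCAM and MPO were listed at 0. The part of these markers in the KM-H2 results, here and below, was not tested. The HLA-DPB1 call was kept in every alternative run. Leaving out KM-H2 library 0 ended the other 4 calls (adjusted p = 0.0853 for HLA-DRB1, 0.0994 for HLA-DRA, 0.0942 for HLA-DPA1 and 0.156 for HLA-DMA). Leaving out Namalwa library 0 did so too (adjusted p = 0.087, 0.171, 0.135 and 0.186 in the same order). The HLA-DRA call was also lost without KM-H2 library 1 (adjusted p = 0.0711).

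L428 against Namalwa also called 5 of 10 members, where 31.3% of all tested genes were called, with 4 higher and HLA-DOB lower in L428. HLA-DPA1 was higher by 2.19 ± 0.41 (adjusted p = 0.00234), HLA-DPB1 by 2.12 ± 0.31 (adjusted p = 0.000522) and HLA-DRB1 by 1.98 ± 0.42 (adjusted p = 0.0048). HLA-DOB fell by 2.42 on the log2 scale in L428 relative to Namalwa (SE 0.37, adjusted p = 0.000739). These 4 calls were kept in every alternative run, and the HLA-DOB difference was -3.67 with a pseudocount of 0.01. HLA-DMA was higher by 1.24 ± 0.42 (adjusted p = 0.0425), a call lost without any of 6 libraries, with an adjusted p of 0.214 without L428 library 0, 0.253 without Namalwa library 0, and 0.0615 to 0.0621 without either library of Reh or Reh_PMA.

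L1236 against Namalwa called 2 of 10 members, beside 29.5% of all tested genes. They were HLA-DPA1 (1.21 ± 0.41, adjusted p = 0.0424) and HLA-DPB1 (1.03 ± 0.31, adjusted p = 0.0248), both higher in L1236. Without L1236 library 1 the differences were 0.71 and 0.68 (adjusted p = 0.282 and 0.18), and without Namalwa library 0 they were 0.82 and 0.93 (adjusted p = 0.234 and 0.11), so neither was called. The HLA-DPA1 call was further lost without any 1 library of Reh or Reh_PMA (adjusted p = 0.058 to 0.0592), and the HLA-DPB1 call without Namalwa library 1 (adjusted p = 0.0655).

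Against Reh, 1 member was called for each cHL line. KM-H2 had higher HLA-DOB (1.43 ± 0.37, adjusted p = 0.012) where 32.7% of tested genes were called, and the call was lost without KM-H2 library 1 (adjusted p = 0.0727) or Reh library 0 (adjusted p = 0.103). In L1236, HLA-DOB was higher by 1.78 ± 0.37 (adjusted p = 0.0041), beside 30.7% of tested genes called, and was called in every alternative run with differences of 1.39 to 2.31. In L428, HLA-DRB1 was higher by 1.27 ± 0.42 (adjusted p = 0.0385), beside 30.3%. That call was lost without L428 library 0 (adjusted p = 0.176), Reh library 0 (adjusted p = 0.222), Reh library 1 (adjusted p = 0.0517) or either Reh_PMA library (adjusted p = 0.0569). HLA-DPB1 in L428 passed the p threshold but not 2-fold (0.94 ± 0.31, adjusted p = 0.0347). HLA-DRA in L1236 was just outside the p threshold (-1.25 ± 0.46, adjusted p = 0.0556) and was called without the trended prior (adjusted p = 0.0367). Leaving out L1236 library 1 or either L428 library also made it a call. All comparisons with 1 control line share its libraries and are not independent.

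**Figure D2:**
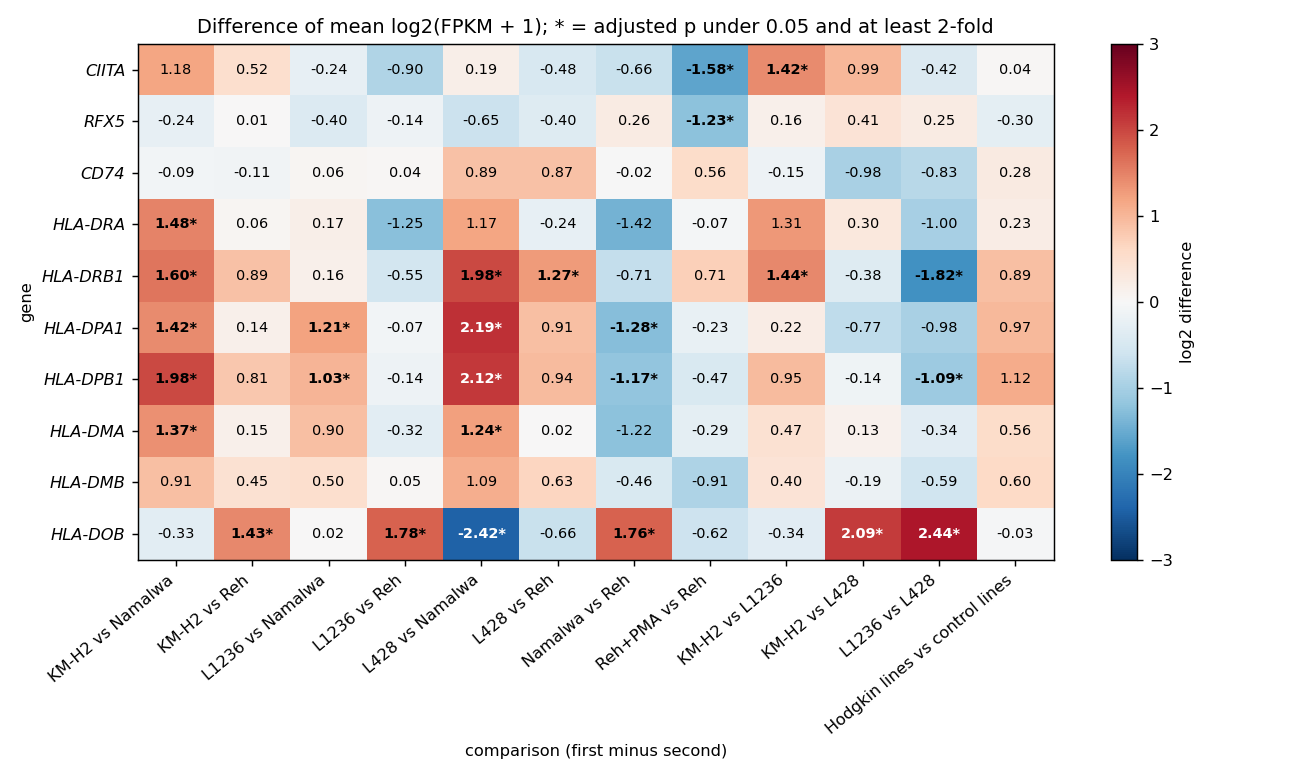
Difference of the group means of log2(FPKM + 1), first group minus second, for the 10 genes (rows) in 12 comparisons (columns), with colour from blue (lower) to red (higher) and an asterisk for a call. HLA-DPB1 runs from -1.17 (Namalwa against Reh) to 2.12 (L428 against Namalwa), and the last column, 3 cHL lines against 2 control lines, has no asterisk.

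With the line as the unit, no member differed between the 3 cHL and the 2 control lines. limma on the 5 line means called 0 of 10 members and 0.545% of tested genes (80 of 14679, with 1983 at an unadjusted p under 0.05), and none of the members was under that unadjusted limit. Without 1 library of a cHL line 28 to 35 genes were called, without the line Namalwa 183, and without KM-H2, L1236, L428 or Reh none, with no member called in any of these. The member nearest to a call was HLA-DPB1 (1.12 ± 0.52, 95% interval -0.18 to 2.43, adjusted p = 0.427). CIITA differed by 0.04 (95% interval -1.26 to 1.35) and HLA-DOB by -0.03 (95% interval -2.40 to 2.34), intervals that include changes of over 2-fold either way. Over the 10 possible arrangements of the lines, the exact two-sided permutation p was between 0.2 (HLA-DMB) and 1 (CIITA and HLA-DOB), where 0.1 is the smallest p the design allows. The median difference over the members was 0.42, against 0.02 over all tested genes, and it was 0.89 without Reh and 0.30 without Namalwa.

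The lines of a class differed among themselves. Namalwa against Reh called 3 of 10 members, where 19.0% of all tested genes were called. HLA-DOB was higher in Namalwa (1.76 ± 0.37, adjusted p = 0.00704), a call lost without Namalwa library 1 (adjusted p = 0.059) or Reh library 0 (adjusted p = 0.0713). HLA-DPB1 was lower (-1.17 ± 0.31, adjusted p = 0.0207), a call lost without any 1 library of these 2 lines (adjusted p = 0.0608 to 0.116). HLA-DPA1 was lower by a similar amount (-1.28 ± 0.41, adjusted p = 0.0484), near the threshold, and that call was lost without 7 of the 12 libraries in turn: Namalwa library 0 (adjusted p = 0.271) and either library of KM-H2 (0.0559 and 0.056), Reh (0.104 and 0.243) or Reh_PMA (0.0689 and 0.0692). HLA-DRA was just outside the threshold (-1.42, adjusted p = 0.0502) and was called without either library of L1236 or L428 (adjusted p = 0.035 to 0.0452).

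Among the cHL lines, HLA-DOB separated L428 from both others. It was higher in L1236 than in L428 by 2.44 ± 0.37 (adjusted p = 0.00104) and higher in KM-H2 than in L428 by 2.09 ± 0.37 (adjusted p = 0.00201), and both were called in every alternative run. With a pseudocount of 0.01 these HLA-DOB differences were 3.69 and 3.30. L1236 against L428 called 3 of 10 members, beside 21.9% of all tested genes, and KM-H2 against L428 called 1, beside 26.6%. CIITA was not called for KM-H2 against L428 (0.99 ± 0.47, adjusted p = 0.137), but it was without KM-H2 library 1 (difference 1.59). HLA-DRB1 was lower in L1236 than in L428 (-1.82 ± 0.42, adjusted p = 0.0102), a call lost without L1236 library 1 (adjusted p = 0.0619) or L428 library 0 (adjusted p = 0.0629). HLA-DPB1 was lower too (-1.09 ± 0.31, adjusted p = 0.025), a call lost without L1236 library 0 (-0.74, adjusted p = 0.178) or L428 library 0 (-0.71, adjusted p = 0.148).

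KM-H2 against L1236 called 2 of 10 members, CIITA and HLA-DRB1, both higher in KM-H2, beside 26.6% of all tested genes. HLA-DRB1 differed by 1.44 ± 0.42 (adjusted p = 0.0248), and without KM-H2 library 0 the difference was 0.84 (adjusted p = 0.149). That call was also lost without L1236 library 0 (adjusted p = 0.0586) or L1236 library 1 (adjusted p = 0.125). CIITA differed by 1.42 ± 0.47 (adjusted p = 0.044), and without KM-H2 library 0 by 0.82 (adjusted p = 0.251). The CIITA call was lost without 9 of the 12 libraries in turn: also without L1236 library 0 (adjusted p = 0.138) or 1 (0.119), either L428 library (0.0518 and 0.0511), either Namalwa library (0.0609 and 0.0611) and either Reh library (0.0615 and 0.0614).

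FPKM sums differed between libraries, and rescaling every library to the same sum moved the median difference of all tested genes by over 0.1 in the 4 comparisons with L428 that follow. It became -0.11 for L428 against Namalwa, -0.20 for L428 against Reh, 0.20 for KM-H2 against L428 and 0.21 for L1236 against L428. The calls over all genes shifted with it, from 2591 higher and 2010 lower to 2031 and 2312 for L428 against Namalwa. They went from 2284 higher and 2168 lower to 1763 and 2598 for L428 against Reh, from 2004 and 1900 to 2366 and 1383 for KM-H2 against L428, and from 1598 and 1618 to 2101 and 1055 for L1236 against L428. After that rescaling the HLA-DRB1 difference between L428 and Reh was 0.99 (adjusted p = 0.211), the HLA-DPB1 difference between L1236 and L428 -0.76 (adjusted p = 0.224) and the HLA-DMA difference between L428 and Namalwa 1.00 (adjusted p = 0.133), none of them a call. It also ended the HLA-DRB1 calls for L1236 against L428 (adjusted p = 0.0857), KM-H2 against L1236 (0.0959) and KM-H2 against Namalwa (0.0504), and the CIITA call for KM-H2 against L1236 (0.156). For Namalwa against Reh it ended the HLA-DPA1 (0.0565) and HLA-DPB1 (0.0731) calls, and for L1236 against Namalwa the HLA-DPB1 call (0.0647).

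PMA treatment of Reh was compared with untreated Reh, since the study used it as an inflammatory stimulus. Of 9 PMA response genes 8 rose, among them EGR1 (from 0.14 and 0.035 to 62.1 and 76.2 FPKM) and FOS (from 0.87 and 1.31 to 62.7 and 44.5 FPKM), and CBFA2T3 fell. CCL4 and RELB were named by the study from these libraries and CBFA2T3 from its qPCR of the same treatment, so these 3 are not independent evidence. Precursor genes fell in the same comparison, 5 of 7 (VPREB3, IGLL1, RAG1, RAG2 and MME), and so did 4 of 8 B-lineage markers (CD79B, PAX5, EBF1 and BLK), with CD22 higher. The 7 precursor markers summed to 1517 and 1425 FPKM in Reh and to 180.5 and 165 FPKM in Reh_PMA, and their part in the class II results was not tested.

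Of the 10 members, 2 fell with PMA and none rose, a share close to the 22.2% called over all tested genes. RFX5 fell by 1.23 on the log2 scale (SE 0.26, adjusted p = 0.00696), with both treated libraries below both untreated ones. Without Reh_PMA library 0 the RFX5 difference was -1.19 and its adjusted p 0.0505. CIITA fell by 1.58 (SE 0.47, adjusted p = 0.033), and the 2 treated libraries disagreed (3.03 and 9.07 FPKM). The CIITA difference was -0.92 without Reh_PMA library 0 (adjusted p = 0.231), -1.36 without Reh library 0 (adjusted p = 0.171) and -1.79 without Reh library 1 (adjusted p = 0.082), none of them a call. Rescaling to the same sum and testing without the filter on low values also ended it (adjusted p = 0.128 and 0.0555).

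The 7 class II genes of the set and CD74 were not called after PMA, in either direction. HLA-DRA differed by -0.07 (95% interval -1.10 to 0.96), HLA-DPA1 by -0.23 (-1.15 to 0.70), HLA-DMA by -0.29 (-1.25 to 0.67) and HLA-DPB1 by -0.47 (-1.16 to 0.22). HLA-DMB differed by -0.91 (95% interval -1.85 to 0.02) and HLA-DOB by -0.62 (-1.46 to 0.22). CD74 was on the other side of 0 (0.56, 95% interval -0.31 to 1.42), as was HLA-DRB1 (0.71, 95% interval -0.25 to 1.66). After quantile normalization the CD74 difference was 1.31 and a call (adjusted p = 0.0265). All 8 intervals include 0, and each also includes a 2-fold change. Whether CIITA and RFX5 differed in response from the class II genes was not tested.

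Duplicates disagreed in a shared direction for these genes. From library 0 to library 1 of KM-H2, 9 of 10 members were lower, with a median of -0.44 on the log2 scale, and in L428 9 of 10 were lower, with a median of -0.68. In L1236 8 of 10 were higher (median 0.67), in Namalwa 9 of 10 (median 0.56) and in Reh 8 of 10 (median 0.25), while Reh_PMA had 4 higher and 6 lower (median -0.11). The median over all tested genes lay within 0.0034 of 0 in each pair. The members' median absolute difference within a pair was 0.49 in KM-H2, 0.67 in L1236, 0.68 in L428, 0.56 in Namalwa, 0.25 in Reh and 0.20 in Reh_PMA. Over all tested genes it was 0.35, 0.25, 0.31, 0.24, 0.17 and 0.20 in the same order. The FPKM sum over all rows was larger in library 1 of all 5 untreated lines and smaller in library 1 of Reh_PMA, and its part in these differences was not tested. The study names HiSeq and NextSeq instruments for its sequencing and does not say which library ran on which. The part of the instrument in these differences was not tested. Whether the numbers mark a batch is not given in the sources used here.

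**Figure D3:**
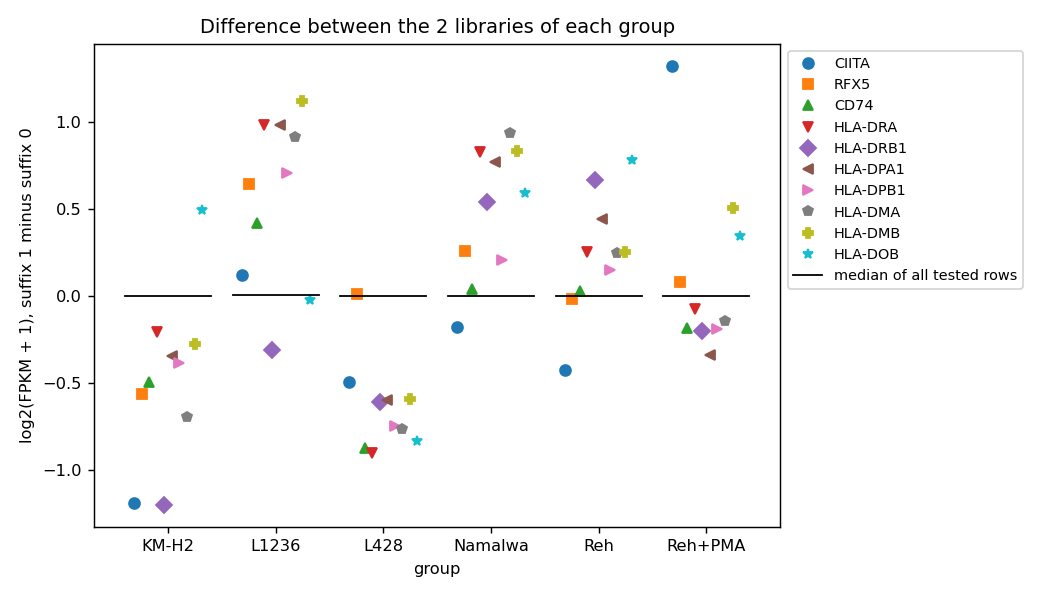
Difference in log2(FPKM + 1) between the libraries of each group (y axis, library 1 minus library 0) for the 10 genes, with a black line at the median of all tested genes. Most members lie below 0 in KM-H2 and L428 and above 0 in L1236, Namalwa and Reh, and CIITA runs from -1.19 in KM-H2 to 1.32 in Reh_PMA.

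Further class II genes included several at or near 0 in some of the lines. All 10 further genes listed were in the table and 7 passed the filter on low values, with HLA-DPB2 below it and HLA-DRB3 and HLA-DRB4 listed at 0 in all libraries. HLA-DQA1, the DQ alpha chain, was listed at 0 in both Reh libraries and at 0.047 and 0.045 FPKM in Reh_PMA, and measured 68.1 and 84.7 FPKM in L1236, 23.7 and 50.4 in L428, 22.0 and 28.9 in Namalwa, and 14.1 and 4.76 in KM-H2. HLA-DQA2 had the reverse order between KM-H2 and L1236, with 87.5 and 32.8 FPKM against 0.17 and 0.13 FPKM. HLA-DQB1, the DQ beta chain, had its highest mean in Namalwa (14.6 and 22.3 FPKM) and its lowest in Reh (0.56 and 0.36 FPKM). HLA-DRB5, a paralog of HLA-DRB1, measured 46.3 and 78.0 FPKM in Namalwa, 29.8 and 3.41 in KM-H2 and no more than 0.15 in L1236 and L428. These are families of near-identical genes whose reads can be assigned to one another, and the alleles of a line can differ from the reference. The values are therefore uncertain, also those listed at 0, which need not mean that a gene was silent. Of the 7 tested, 3 were called higher and 2 lower in KM-H2 than in Namalwa, 1 and 4 in L1236, and 2 and 2 in L428. Against Reh the counts were 5 and 0 for KM-H2, 2 and 2 for L1236, and 4 and 0 for L428. Over all tested genes the share called in these 6 comparisons was 29.5% to 32.7%. None was called between the classes over line means.

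HLA-DOA, the alpha partner of HLA-DOB, did not follow it. It measured 33.7 and 25.5 FPKM in KM-H2, 32.2 and 32.2 in Reh, 30.6 and 22.1 in L428, 13.7 and 14.0 in Namalwa, 11.6 and 12.8 in Reh_PMA, and 2.75 and 5.06 in L1236. HLA-DOA was thus low in L1236, where HLA-DOB was high, and high in L428, where HLA-DOB was low. It was lower in L1236 than in L428 by 2.50 (log2 difference -2.50 ± 0.26, adjusted p = 0.000106 by limma). HLA-DOA fell with PMA, by 1.34 (SE 0.26, adjusted p = 0.00533), as the only gene of this list called in that comparison.

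**Figure D4:**
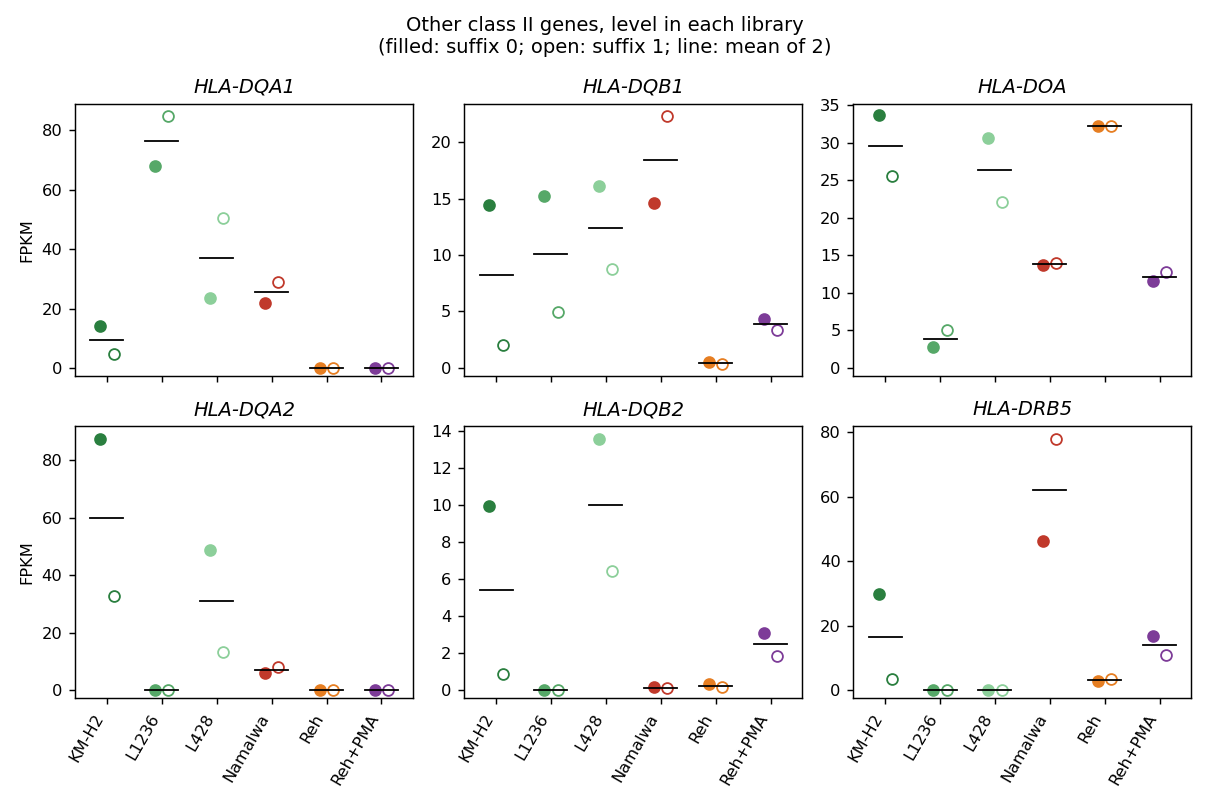
FPKM (y axis, linear, from 0) of 6 further class II genes in each group (x axis), with library 0 filled, library 1 open and the mean of both as a line. HLA-DQA1 is at or near 0 in Reh and Reh_PMA, HLA-DQA2 in L1236, Reh and Reh_PMA, and HLA-DOA is lowest in L1236.

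The DNA-binding partners of CIITA were tested next. Of RFXAP, RFXANK, NFYA, NFYB, NFYC and CREB1, all 6 tested, none was called with PMA, and in each comparison of a cHL with a control line at most 1 was called, beside 22.2% of all tested genes with PMA and 29.5% to 32.7% in the others. With 6 genes, these counts are too small to set the partners apart from other genes. NFYA, the DNA-contacting subunit of NF-Y, was lower in KM-H2 than in Reh (-1.26 ± 0.22, adjusted p = 0.00137), and NFYB was lower in L1236 than in Namalwa (-1.19 ± 0.23, adjusted p = 0.00296). RFXAP, an RFX subunit, was the scarcest of the 6, at 0.98 to 3.57 FPKM.

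Inducers and repressors of CIITA were compared between cHL and control lines, where 29.5% to 32.7% of all tested genes were called. Of 12 tested, 5 were higher and 2 lower in KM-H2 than in Namalwa, 4 and 2 in L1236, and 6 and 4 in L428. Against Reh the counts were 6 and 3 for KM-H2, 6 and 4 for L1236, and 6 and 2 for L428. SOCS1, an inhibitor of JAK signalling, measured 27.4 and 19.7 FPKM in KM-H2, 41.8 and 21.5 in L1236, 61.2 and 40.7 in L428, and no more than 4.69 in any library of the other groups. It was called higher for each cHL line against each control line, by 2.55 to 4.71, and so was IRF4, a lymphoid factor, by 1.89 to 6.70. JAK2, a kinase of the interferon gamma receptor, measured 52.4 and 53.1 FPKM in L1236 and 18.1 and 28.4 in L428, and no more than 6.19 in any library of the other groups.

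SPI1 (PU.1), a myeloid and B cell factor, was listed at 0 in all 6 cHL libraries and measured 33.8 and 33.6 FPKM in Namalwa and 24.9 and 22.4 in Reh. It was the only one of the 12 regulators called between the classes over line means (adjusted p = 0.0218 by limma), a call lost without the line KM-H2, L1236, L428 or Reh. PRDM1 (BLIMP1), a repressor of CIITA in plasma cells, measured 9.49 and 12.8 FPKM in L428 and no more than 1.33 in any other library. IRF8 measured 89.1 and 152 FPKM in Namalwa, 22.2 and 13.0 in L428 and no more than 3.36 elsewhere. With PMA, IRF1, an interferon-induced activator, fell by 2.08 (SE 0.17, adjusted p = 5.71e-05), from 54.5 and 64.5 to 14.4 and 12.3 FPKM. IFNGR1, the ligand-binding chain of the receptor, rose by 2.57 ± 0.49 (adjusted p = 0.00476), and the other 10 regulators were not called.

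**Figure D5:**
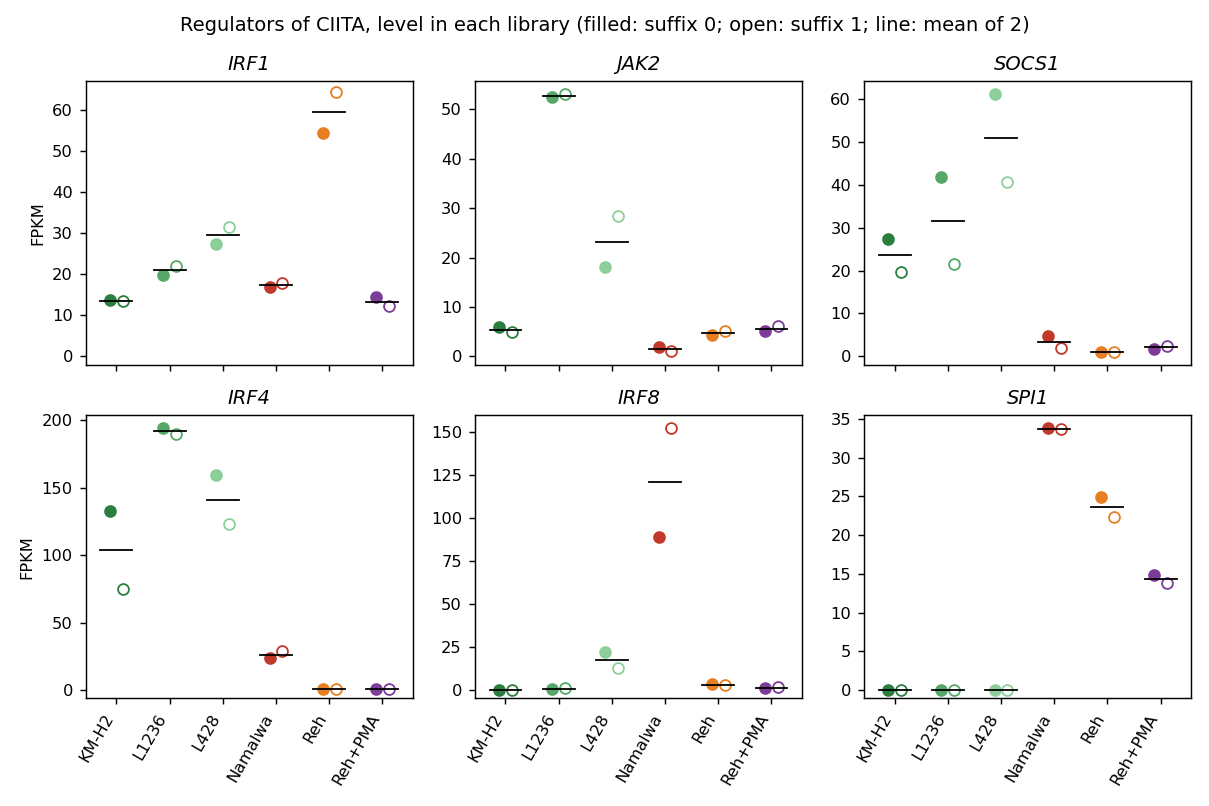
FPKM (y axis, linear, from 0) of 6 regulators of CIITA in each group (x axis), with library 0 filled, library 1 open and the mean of both as a line. SOCS1 and IRF4 are higher in each cHL line than in Namalwa, Reh and Reh_PMA, SPI1 is at 0 in the cHL lines, and IRF1 is highest in untreated Reh.

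Genes next to CIITA on chromosome 16 were compared as well. Of 5 neighbours in the table, RMI2 alone was called with PMA, beside 22.2% of all tested genes, and it fell by 1.80 (SE 0.31, adjusted p = 0.00268), from 25.3 and 22.5 to 6.85 and 5.47 FPKM. DEXI was called higher in KM-H2 than in each other untreated line, by 1.09 (Namalwa) to 1.55 (Reh). It measured 28.7 and 35.2 FPKM in KM-H2 and no more than 18.2 in any other library. CLEC16A measured 39.0 and 39.8 FPKM in L428 and 16.6 and 18.9 in KM-H2.

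Among 9 tested genes of class II antigen processing, SPPL2A, the protease that clears the CD74 remnant, was called higher in all 6 comparisons of a cHL with a control line, by 1.20 to 2.02, where 29.5% to 32.7% of all tested genes were called. Of the 9, 1 was called higher and 2 lower in KM-H2 than in Namalwa, 2 and 2 in L1236, and 1 and 2 in L428. Against Reh the counts were 2 and 2 for KM-H2, 1 and 2 for L1236, and 1 and 1 for L428. CTSL was called lower in each cHL line than in Reh. SPPL2A measured no less than 29.0 FPKM in the cHL libraries and 14.6 to 16.7 in Namalwa and untreated Reh, and 33.7 and 30.2 in Reh_PMA, which was not called against Reh (0.98, adjusted p = 0.0511). MARCH1, a ubiquitin ligase that removes class II from the cell surface, fell with PMA by 2.51 (SE 0.67, adjusted p = 0.0201), from 5.20 and 4.54 to 0.037 and 0.023 FPKM. Its relative MARCH8 fell by 1.01 (SE 0.25, adjusted p = 0.0145), and the other 7 were not called, beside 22.2% of all tested genes called with PMA.

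Class I presentation genes gave a comparison outside class II. Of 12 listed genes, 6 were called higher in KM-H2 than in Namalwa and none lower, with 7 higher and 2 lower in L1236, and 5 higher and 1 lower in L428. Against Reh the counts were 3 and 0 for KM-H2, 4 and 1 for L1236, and 3 and 2 for L428. Over all tested genes the share called in these comparisons was 29.5% to 32.7%. TAPBP, which loads peptide on class I, was the only one called higher in all 6 comparisons with a control line. None of the 12 was called between the classes over line means. NLRC5, the class I counterpart of CIITA, was at 1.35 to 13.1 FPKM and was called in 2 comparisons of untreated lines, higher in L1236 than in Reh and higher in Namalwa than in Reh.

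Correlations across the 12 libraries differed from pair to pair. Pearson's r of log2(FPKM + 1) was 0.91 between HLA-DPA1 and HLA-DPB1, 0.88 between HLA-DPA1 and HLA-DMA, and 0.84 between HLA-DRA and HLA-DMA. It was 0.73 between HLA-DRA and HLA-DRB1 and 0.39 between HLA-DRA and HLA-DMB. CIITA had r of 0.64 with RFX5, 0.63 with HLA-DMB, 0.49 with HLA-DPB1, 0.37 with HLA-DMA, 0.29 with HLA-DRA, 0.22 with HLA-DOB, 0.21 with HLA-DRB1, 0.20 with HLA-DPA1 and -0.24 with CD74. HLA-DOB had r of 0.62 with RFX5 and -0.62 with CD74. With the other HLA genes of the set it ran from -0.565 (HLA-DRB1) to 0.125 (HLA-DMB), with -0.50 for HLA-DRA. The libraries are pairs from 6 groups that share lines and scaling, so these values are descriptions.

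Among 5670 genes whose log2 values spanned at least 2, E2F7, a cell cycle repressor, had the pattern most like CIITA (r = 0.90, 12 libraries), followed by SLC22A23 and NDUFA6-AS1 (r = 0.88 for both), MMAB (0.85) and NUDT6 (0.83). Mean E2F7 was 12.4 FPKM in KM-H2, 6.85 in Reh and 1.57 in Reh_PMA. The genes most like HLA-DRA were MKRN3 (r = 0.85), RPL22L1, KHDRBS3, C8orf58 and FADS1 (all r = 0.84).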

How the data were processed

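The authors made duplicate stranded total RNA libraries for 6 groups and deposited 1 table of FPKM values, with no counts and no depth. The submitters' processing notes name TopHat2 2.0.11, Cuffnorm 2.2.1, bedtools and hg19; annotation, strand setting and Cuffnorm normalization are not given in the sources used here. Columns were matched to groups by name, and 0 columns were left over.

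Rows with an FPKM of at least 1 in at least 2 libraries (14679 of 26210) were tested on log2(FPKM + 1), with a pseudocount of 1, which understates the change of low genes. limma 3.58.1 (R 4.3.3, trended prior) fitted all 12 libraries with 1 mean per group for 11 comparisons, and the 5 line means for cHL against control lines. Reh_PMA was left out of the latter. A call needed a Benjamini-Hochberg adjusted p under 0.05 and at least 2-fold. The scripts were tested on simulated data. The replicates of the labels could not be tied to columns. Alternatives were pseudocounts of 0.1 and 0.01, no filter, a common sum, quantile normalization, no trend, a block by column suffix and leaving out each library. Some genes of the lists enter the counts and sums but are not reported here by name. Genes named are the 10 members, genes of lists set by function or marker role, and the 5 most like CIITA and HLA-DRA. Members and lists were chosen with earlier results of these data known.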

Additional observations from a re-analysis of the deposited data

Results flagged for a closer look

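Differences between cHL lines that the limma test called are listed here because lines of 1 disease differed by the test of the difference itself (log2 scale, adjusted p over all tested genes). HLA-DOB was higher in L1236 than in L428 by 2.44 (adjusted p = 0.00104) and higher in KM-H2 than in L428 by 2.09 (adjusted p = 0.00201), with both libraries of the first line above both of the second. HLA-DRB1 gave -1.82 for L1236 against L428 (adjusted p = 0.0102) and 1.44 for KM-H2 against L1236 (adjusted p = 0.0248). HLA-DPB1 gave -1.09 for L1236 against L428 (adjusted p = 0.025), and CIITA 1.42 for KM-H2 against L1236 (adjusted p = 0.044). All of these but the HLA-DOB differences were lost when single libraries were left out. Groups of 2 libraries are too small to test a single value as an outlier.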

How the results depend on the processing

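Of the 26 calls on members, 8 held in all 19 alternatives: HLA-DRB1, HLA-DPA1, HLA-DPB1 and HLA-DOB for L428 against Namalwa, HLA-DPB1 for KM-H2 against Namalwa, and HLA-DOB for L1236 against Reh and for KM-H2 and L1236 against L428. Over 2310 recomputed values 88 calls were lost, 39 were gained and 0 reversed. Single genes outside the set were not followed through the alternatives, apart from counts over all tested genes.

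The count of members called moved by over 1.5 times as follows, and the cause was not tested. For KM-H2 against L1236 (2 called) it was 1 without the filter and with either smaller pseudocount, and 0 after rescaling to the same sum. KM-H2 against Reh (1) gave 0 with a pseudocount of 0.01, and L1236 against Reh (1) gave 2 without the trend. L428 against Reh (1) gave 0 without the filter, 0 rescaled and 2 quantile normalized. L1236 against Namalwa and Reh_PMA against Reh (2 each) gave 1 without the filter and 1 rescaled, and L1236 against L428 (3) gave 1 rescaled. Namalwa against Reh (3) gave 5 quantile normalized and 1 rescaled. The cHL against control contrast (0) gave 1 over libraries instead of lines, HLA-DPB1 (1.12, adjusted p = 0.00112). Over all tested genes that contrast called 80, with 19 at a pseudocount of 0.01, 11 without the filter and 3614 over libraries, and Reh_PMA against Reh called 3265, with 2092 without Reh library 0 and 1968 without Reh_PMA library 0.

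Leaving out each library in turn gave 0 to 2 calls for KM-H2 against L1236, 1 to 2 for KM-H2 against L428, 1 to 6 for KM-H2 against Namalwa, 0 to 1 for KM-H2 against Reh, 1 to 4 for L1236 against L428, 0 to 2 for L1236 against Namalwa, 1 to 2 for L1236 against Reh, 4 to 7 for L428 against Namalwa, 0 to 3 for L428 against Reh, 0 to 4 for Namalwa against Reh, 0 to 2 for Reh_PMA against Reh, and 0 throughout for cHL against control lines. A group left with 1 library was assumed to vary like the other groups.

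A fit paired by the replicate numbers of the labels could not be made, since the columns do not carry them. A replicate block by column suffix, added after seeing the data, gave 1 call for KM-H2 against L1236 and otherwise moved no count by over 1.5 times, though it ended the calls of CIITA there, HLA-DMA for L428 against Namalwa and HLA-DPA1 for Namalwa against Reh (adjusted p = 0.0508, 0.0505 and 0.0529). Deviations of equally numbered libraries correlated at 0.30 to 0.68 between cHL lines and at 0.36 between Namalwa and Reh, and at -0.045 to 0.19 in the other 11 pairs of groups, so pairing was not taken as given. Whether the suffix marks a batch is not given in the sources used here. Depth is unknown, so counting error behind low values such as HLA-DOB in L428 could not be given.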
